A study of Mus musculus with 14 samples.

Results

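The mitochondrial genome of the mouse was read out in the ascending aorta through 37 of the 32289 genes of the deposited gene table. Members were all genes whose name starts with mt-, and these were also all 37 genes listed on chromosome MT. They comprised 13 protein-coding genes, 2 ribosomal RNA (rRNA) genes and 22 transfer RNA (tRNA) genes, 28 of them annotated on the plus strand and 9 on the minus strand. The tissue was ascending aorta from C57BL/6 mice, taken 6 weeks into an aneurysm model and read by bulk RNA sequencing. The 14 libraries were 3 of mice given PBS, 4 of mice given BAPN, 3 of mice given BAPN and Cilengitide and 4 of mice given BAPN and SB273005, so that BAPN is common to all groups but PBS. BAPN (β-aminopropionitrile) blocks lysyl oxidases, which cross-link elastin and collagen, and the labels call Cilengitide and SB273005 integrin αV inhibitors. The sources used here give neither doses nor the age of the animals, and nothing in the labels says that each library came from a separate animal, so a p-value here may reflect only technical spread between samples. The groups with an inhibitor are called Cilengitide and SB273005 below. The design sets BAPN against PBS, and each inhibitor against BAPN alone.

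Mitochondrial DNA is a small circle that is present in many copies per cell. It encodes core subunits of the respiratory chain and ATP synthase, together with the rRNAs and tRNAs with which mitochondria translate them, while every other mitochondrial protein comes from nuclear genes. Both strands are copied into long precursors, which are cut largely at the tRNAs that lie between the longer genes, so that abundance after cutting depends on the stability of each RNA. Levels of these RNAs differ between tissues and are known to be high in heart, skeletal muscle and brown fat.

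The tRNA genes show this arrangement, and 6 of them are printed here because the results turn on them. The first set below lies side by side on the plus strand between mt-Nd4 and mt-Nd5 and held the tRNA levels that varied most between libraries. In each sequence the capitals mark the anticodon. With a t before it and an a or g after it, it was found once between bases 16 and 44. Without these flanking bases the same triplet can occur again there. Sequences are those of the GENCODE vM21 transcripts, 5′ to 3′ on the annotated strand (mm10).
mt-Th (histidine, MT:11546-11612, plus strand): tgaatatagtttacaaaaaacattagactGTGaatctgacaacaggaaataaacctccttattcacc
mt-Ts2 (serine, MT:11613-11671, plus strand): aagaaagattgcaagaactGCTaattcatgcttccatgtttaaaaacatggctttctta
mt-Tl2 (leucine, MT:11671-11741, plus strand): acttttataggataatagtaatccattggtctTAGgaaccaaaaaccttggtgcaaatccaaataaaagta

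The second set held the most counts among the tRNA genes. Of these, mt-Ts1 lies on the strand opposite to mt-Co1 and shares 3 bases with it. On the minus strand mt-Te directly precedes mt-Nd6, and on the plus strand mt-Tl1 joins mt-Rnr2 to mt-Nd1.
mt-Ts1 (serine, MT:6870-6938, minus strand): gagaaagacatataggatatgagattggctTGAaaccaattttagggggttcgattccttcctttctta
mt-Te (glutamate, MT:14071-14139, minus strand): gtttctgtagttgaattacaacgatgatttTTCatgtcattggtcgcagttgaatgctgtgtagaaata
mt-Tl1 (leucine, MT:2676-2750, plus strand): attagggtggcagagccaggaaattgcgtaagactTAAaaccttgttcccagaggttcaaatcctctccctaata

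Adjacent genes also overlap. The reading frames of mt-Atp8 and mt-Atp6, subunits of ATP synthase, share 43 bases, and those of mt-Nd4l and mt-Nd4, subunits of complex I, share 7, marked by the capitals below with 12 bases on either side. Reads that fall there belong to both genes, and the sources used here do not say how the authors divided them, nor whether reads were counted by strand. Partners on opposite strands share only 3 bases (mt-Co1 and mt-Ts1), 14 (mt-Nd5 and mt-Nd6) and 3 (mt-Ti and mt-Tq), and without strand a read within these bases cannot be assigned to 1 of them. The same holds for a read that comes from the opposite precursor along any gene.
mt-Atp8 and mt-Atp6 (MT:7915-7981, plus strand): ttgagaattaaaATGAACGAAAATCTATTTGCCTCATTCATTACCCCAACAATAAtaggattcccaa
mt-Nd4l and mt-Nd4 (MT:10155-10185, plus strand): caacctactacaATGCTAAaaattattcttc

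Total counts were 49027885 to 72584877 per library. Libraries differed in ways that the groups do not give. SB273005 replicate 2 had the lowest level of 5 smooth muscle markers (Myh11, Acta2, Cnn1, Tagln and Lmod1), at a summed 1087 FPKM (fragments scaled by transcript length and sequencing depth) against 4418 to 10316 in the other 13. H2-Ea, which encodes an MHC class II chain, had 0 counts in all PBS libraries and in SB273005 replicates 1 to 3, 6 libraries in all, and 83 to 130 counts in the remaining 8. PBS thus lies wholly in one set of libraries and BAPN and Cilengitide wholly in the other, so for these groups the set and the difference from PBS cannot be told apart. Of the SB273005 libraries only replicate 4 lies in the set of BAPN and Cilengitide. Differences of SB273005 from these groups therefore also nearly coincide with the set.

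The members held between 4.10% and 17.9% of all counts of a library. In PBS replicates 1 to 3 they took 6.29%, 9.0% and 6.78%, a mean of 7.36 ± 1.45% (SD, n = 3). In BAPN replicates 1 to 4 they took 4.26%, 7.38%, 5.72% and 8.49%, a mean of 6.46 ± 1.86% (SD, n = 4). These groups overlapped, and the BAPN mean was 0.896 percentage points below that of PBS. In the Cilengitide libraries the share was 5.23%, 4.16% and 4.10%, a mean of 4.50 ± 0.633% (SD, n = 3), so that all lay below the lowest PBS library while 1 of the 4 BAPN libraries lay among them. In SB273005 replicates 1 to 4 it was 5.68%, 17.9%, 10.2% and 5.32%, a mean of 9.79 ± 5.87% (SD, n = 4). The spread of this group was wide, since replicates 1 and 4 lay below all PBS libraries and replicates 2 and 3 above them, and without replicate 2 its mean was 7.07 ± 2.73% (SD, n = 3). The 95% binomial interval of each share (Wilson) was at most 0.00979 percentage points to either side and covers counting error only. In bulk tissue, fewer cells rich in mitochondria and less mitochondrial RNA per cell cannot be told apart.

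**Figure D1:**
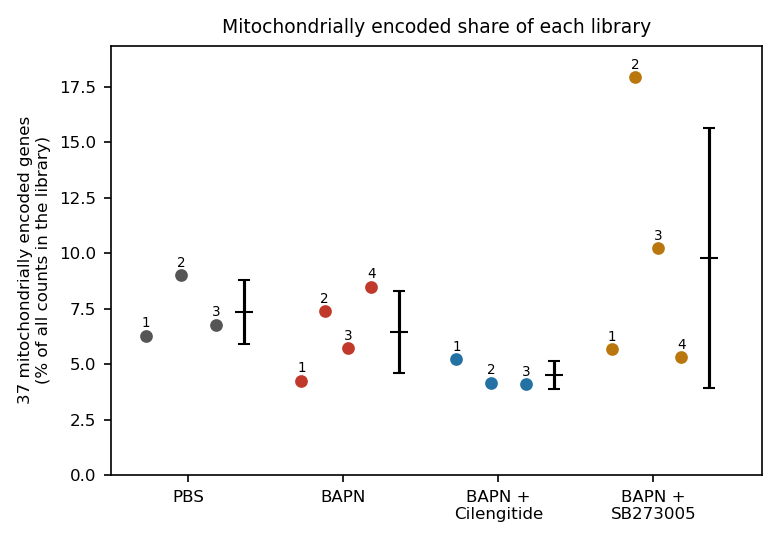
Share of all counts held by the 37 mitochondrially encoded genes (y axis, percent of counts) in each library, by group (x axis); points are libraries with their replicate number, and the black mark with bars is the group mean ± SD. SB273005 replicate 2 stands at 17.9%, and the 3 Cilengitide libraries lie between 4.10% and 5.23%.

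Messenger RNA made up almost all of this signal, since the protein-coding genes held 95.8% to 98.4% of the member counts. The 7 genes of complex I (NADH dehydrogenase, mt-Nd1 to mt-Nd6 and mt-Nd4l) held 29.8% to 34.2%. The 3 genes of complex IV (cytochrome c oxidase, mt-Co1, mt-Co2 and mt-Co3) held 44.1% to 47.1%. These shares moved little from library to library. mt-Cytb, the only subunit of complex III encoded in mitochondria, held 11.7% to 13.1%, and mt-Atp6 with mt-Atp8 held 6.79% to 9.11%, the highest of these in SB273005 replicate 2. Among the protein-coding genes, the highest share of member counts over the 14 libraries exceeded the lowest by 1.11-fold (mt-Nd4) to 1.59-fold (mt-Nd3), with a median of 1.29-fold. The protein-coding genes therefore kept nearly fixed proportions while their sum varied between libraries.

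mt-Co1, the catalytic subunit of cytochrome c oxidase, had the highest counts of all members, 30.4% to 34.4% of their sum. Its level was 11200, 16017 and 12334 FPKM in PBS, 8221, 13021, 10372 and 16617 in BAPN, 10069, 7408 and 7890 in Cilengitide and 11529, 33168, 19785 and 10260 in SB273005. SB273005 replicate 2 was the highest library, and the Cilengitide libraries were all below PBS. mt-Atp6, the proton channel subunit of ATP synthase, was at 5359, 7230 and 5643 FPKM in PBS, 3620, 6465, 4869 and 6932 in BAPN, 3883, 2992 and 3123 in Cilengitide and 4209, 17517, 8139 and 4258 in SB273005. mt-Atp8, the smaller subunit that overlaps it, was at 3656, 5463 and 4547 FPKM in PBS, 2562, 4437, 3400 and 5263 in BAPN, 3114, 2108 and 2121 in Cilengitide and 3518, 13003, 6534 and 3136 in SB273005. Both followed the order of mt-Co1 at the top, with SB273005 replicate 2 highest, and both had all Cilengitide libraries below all PBS libraries.

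mt-Nd5, a membrane subunit of complex I, was at 1411, 2107 and 1541 FPKM in PBS, 920.2, 1599, 1272 and 2083 in BAPN, 1597, 964 and 923 in Cilengitide and 1523, 4406, 2541 and 1128 in SB273005. mt-Nd6 is the only protein-coding gene of the minus strand, and it was at 2008, 3080 and 1972 FPKM in PBS, 1195, 2266, 1812 and 2618 in BAPN, 1800, 1285 and 1198 in Cilengitide and 1757, 5878, 2934 and 1402 in SB273005. For mt-Nd5 the Cilengitide and PBS libraries overlapped, and for mt-Nd6 they did not. mt-Nd4l, the shortest complex I gene, was at 1338, 1981 and 1518 FPKM in PBS, 901, 1526, 1195 and 1973 in BAPN, 1364, 969 and 871 in Cilengitide and 1377, 4078, 2483 and 1183 in SB273005. SB273005 replicate 2 was the highest library for all 13 protein-coding genes, by 1.49-fold to 2.15-fold over the next.

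**Figure D2:**
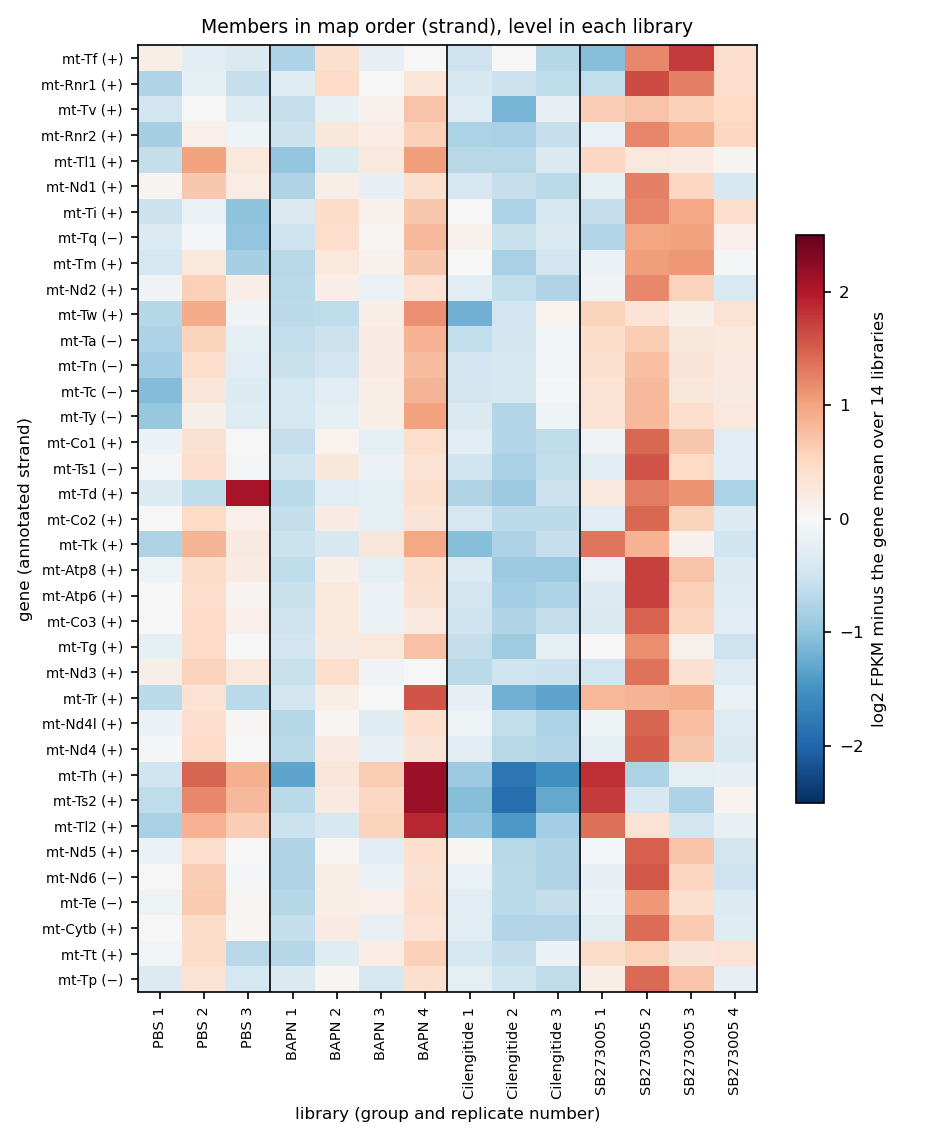
Level of each member (rows, in map order with the annotated strand) in each library (columns, by group and replicate), as log2 FPKM minus the mean of that gene over the 14 libraries (colour scale). The rows of protein-coding genes change together from column to column, with SB273005 replicate 2 highest, while mt-Th, mt-Ts2 and mt-Tl2 are highest in BAPN replicate 4 and SB273005 replicate 1.

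Differences between groups were tested with edgeR's quasi-likelihood test on the deposited estimated counts, over 13294 genes and with Benjamini-Hochberg adjustment (threshold 0.05). All 37 members passed the filter on low values, which asked for 3 libraries at an FPKM of 1 or above. In BAPN vs. PBS, 0 members passed the test, against 0.233% of all genes tested, and 0 members had an unadjusted p under 0.05. DESeq2 and limma also called 0 members there. All 13 protein-coding genes had log2 differences below 0, between −0.37 and −0.14, while mt-Rnr1 and mt-Rnr2 were at 0.66 and 0.39. The median over all members was −0.03, and over all genes it was 0.00. Its sign rested on single libraries, since it was 0.38 without PBS replicate 2 and 0.14 without BAPN replicate 1, but −0.27 without PBS replicate 1 and −0.31 without BAPN replicate 4. Of the 13 protein-coding genes 6 were above 0 without PBS replicate 2 and 2 without BAPN replicate 1.

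In Cilengitide vs. PBS the members were lower by value, but 0 passed in edgeR, against 5.58% of all genes (3.98% higher and 1.60% lower). DESeq2 and limma called 0 as well, and 3 members had an unadjusted p under 0.05, against 20.2% of all genes. Of the 37 members 33 were below 0, with a median of −0.64 against −0.02 over all genes. The median was −0.40 without PBS replicate 2. The protein-coding genes ran from −0.88 to −0.51. mt-Nd3, another complex I subunit, had the lowest p among them, at 745 ± 48.4 FPKM in Cilengitide (SD, n = 3) and 1407 ± 227 in PBS (SD, n = 3), a log2 difference of −0.88 ± 0.42 (edgeR adjusted p = 0.256). For 17 members every Cilengitide library was below every PBS library, namely 11 protein-coding genes (all but mt-Nd4l and mt-Nd5) and 6 tRNA genes, while 18.4% of all genes tested showed this. With a fit of these groups alone, mt-Nd3, mt-Atp6 and mt-Co3 passed (edgeR adjusted p = 0.0258, 0.0416 and 0.0450), 8.11% of the members, and 8.06% of all genes passed in that fit.

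In Cilengitide vs. BAPN, 0 members and 0% of all genes passed in edgeR, and DESeq2 and limma called 0 members. An unadjusted p under 0.05 was found for 5 members and for 6.07% of all genes. All 37 members were below 0, with a median of −0.53 against −0.01 over all genes, and −0.33 without BAPN replicate 4. None had an unadjusted p under 0.05 without BAPN replicate 4 or without Cilengitide replicate 2. The groups did not overlap for 6 members, mt-Rnr1, mt-Rnr2, mt-Ts1, mt-Tk, mt-Ts2 and mt-Tl2, against 7.82% of all genes. That count rests on single libraries, since it was 26 without BAPN replicate 1 (13.1% of all genes) and 17 without Cilengitide replicate 1 (12.9%).

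In SB273005 vs. PBS, 1 member passed in edgeR, mt-Rnr1, while 13.2% of all genes did (7.82% higher and 5.38% lower). For the protein-coding genes the log2 differences were above 0, from 0.15 to 0.59, and 0 passed (edgeR adjusted p = 0.391 to 0.838). The median over all 37 members was 0.52, against 0.02 over all genes, and 33 were above 0. These values rested on SB273005 replicate 2. Without it the median of all members was 0.08 and that of the protein-coding genes −0.13 (−0.42 to 0.08, 3 of 13 above 0). With limma at a pseudocount of 1 the median of all members was 0.30, and 11 of the 13 protein-coding genes were above 0. Groups did not overlap for 2 members, mt-Tv and mt-Ty, both higher in SB273005, against 9.15% of all genes. That count was 10 without PBS replicate 2 (10.6% of all genes) and 7 without SB273005 replicate 1 (11.1%).

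In SB273005 vs. BAPN, 0 members passed in edgeR, against 0.0301% of all genes, and DESeq2 and limma called 0. The median was 0.54, with 34 members above 0 and 2 at an unadjusted p under 0.05, against 16.1% of all genes. It was 0.16 without SB273005 replicate 2 and 0.34 without BAPN replicate 1. The members at an unadjusted p under 0.05 were 0 without either of these and 15 without SB273005 replicate 1 (16.5% of all genes). The inhibitor groups, which the labels give with no dose, differed most by value. Only SB273005 replicate 4 shares the H2-Ea set of the Cilengitide libraries, so this difference and the set can hardly be told apart. All 37 members were higher in SB273005 than in Cilengitide, by 0.74 to 1.84 with a median of 1.12. Of these, 30 had an unadjusted p under 0.05, against 9.21% of all genes. They are not separate results, since the protein-coding genes kept nearly fixed proportions to each other. Without SB273005 replicate 2 the median was 0.69 and 13 members had an unadjusted p under 0.05 (7.28% of all genes). The number of members was 11 without Cilengitide replicate 2 (4.84% of all genes) and 12 without Cilengitide replicate 3 (4.87%). Neither a member nor any other gene passed in edgeR (0%, adjusted p = 0.500 to 0.627 for the members), limma called 0 members, and DESeq2 called 1, mt-Rnr2. The groups did not overlap for 23 members (7 protein-coding, 1 rRNA and 15 tRNA genes), against 2.66% of all genes, and with SB273005 replicate 2 left out the count was also 23, against 4.72%. The approximate 95% interval for mt-Co1 was 0.25 to 2.1. With counts scaled to the sum of the members, which removes a common shift by construction, the medians of the 6 comparisons were −0.04 to 0.20. Comparisons with PBS share the same 3 PBS libraries, and those with BAPN the same 4.

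**Figure D3:**
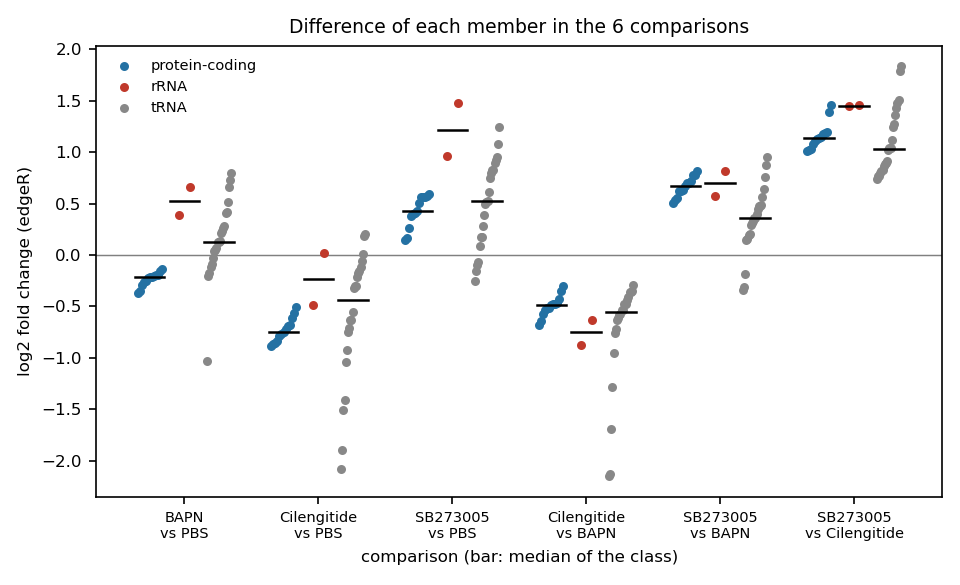
Log2 fold change from edgeR (y axis) of each member in the 6 comparisons (x axis), by class of RNA; points are genes and black bars the median of a class. All members lie above 0 in SB273005 vs. Cilengitide, and in BAPN vs. PBS the protein-coding genes lie below 0 and the rRNA genes above it.

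The rRNAs formed a small part of the libraries, 1.33% to 3.82% of member counts. They are the structural RNAs of the mitochondrial ribosome, mt-Rnr1 (12S, ENSMUSG00000064337, MT:70-1024, plus strand) of the small subunit and mt-Rnr2 (16S, ENSMUSG00000064339, MT:1094-2675, plus strand) of the large one. Their share of member counts was 1.33%, 1.61% and 1.79% in PBS, 2.49%, 2.52%, 2.75% and 2.40% in BAPN, 1.78%, 2.2% and 2.35% in Cilengitide and 2.04%, 2.12%, 2.90% and 3.82% in SB273005. All BAPN and SB273005 libraries were above all PBS libraries. Over the 14 libraries the highest share exceeded the lowest by 2.72-fold for mt-Rnr1 and 2.97-fold for mt-Rnr2, more than for any protein-coding gene.

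mt-Rnr1 rose in SB273005 vs. PBS. Its level was 288, 408 and 326 FPKM in PBS, 396, 678, 485 and 598 in BAPN, 369.9, 334 and 312 in Cilengitide and 316, 1500, 1171 and 658 in SB273005. SB273005 replicates 2 to 4 were above every PBS library, whereas replicate 1 lay within the PBS range. The log2 difference was 1.48 ± 0.42 (SE; 911 ± 527 vs. 341 ± 61.4 FPKM, SD, n = 4 and 3; edgeR adjusted p = 0.0363; higher in 3 of 4 libraries than all of PBS). The call ended without SB273005 replicate 2 (1.07, adjusted p = 0.0706) or replicate 3 (1.34, adjusted p = 0.0678), and without PBS replicate 1, 2 or 3 (adjusted p = 0.108, 0.0768 and 0.103). It also ended without Cilengitide replicate 2 (1.46, edgeR adjusted p = 0.0511), which is in neither group and enters through the shared scaling and estimate of spread. Without SB273005 replicate 1 the difference was 1.76 (adjusted p = 0.00826). Among the 6 libraries with 0 counts of H2-Ea the difference was 1.63 (edgeR adjusted p = 0.151). SB273005 replicate 2, highest for this gene, is the library with the lowest smooth muscle markers, and the part of these in the result was not tested.

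mt-Rnr2 was at 303, 581 and 499 FPKM in PBS, 370.4, 647, 605 and 809.7 in BAPN, 309.7, 303 and 359.8 in Cilengitide and 477, 1238, 989 and 766 in SB273005. The Cilengitide libraries were all below BAPN and below SB273005, and SB273005 replicate 1 again lay within the PBS range. The log2 difference of SB273005 from PBS was 0.96 ± 0.35 and did not pass (edgeR adjusted p = 0.0866), and that from Cilengitide was 1.44 ± 0.35 (edgeR adjusted p = 0.500).

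Ratios of rRNA to mt-Co1 do not depend on how much mitochondrial RNA a library holds. They may depend on selection for poly(A) or depletion of rRNA, which the sources used here do not give. The part of this in the ratios, the rRNA shares and the call of mt-Rnr1 was not tested. The FPKM ratio of mt-Rnr2 to mt-Co1 was 0.0270 to 0.0405 in PBS and 0.0451 to 0.0583 in BAPN, with no overlap. It was 0.0308 to 0.0456 in Cilengitide and 0.0373 to 0.0747 in SB273005. The BAPN mean was 0.56 log2 units above that of PBS (exact two-sided permutation test, p = 0.0571, the smallest that 4 against 3 libraries allow; 0.562 adjusted over 30 tests). No outcome of the 30 tests could have passed after adjustment, since the smallest p is 0.1 for 3 against 3 libraries and 0.0286 for 4 against 4. For mt-Rnr1 to mt-Co1, a pair added after the values were seen and so given with no test, the ratio was 0.0255 to 0.0264 in PBS and 0.0360 to 0.0520 in BAPN. It was 0.0367 to 0.0451 in Cilengitide and 0.0274, 0.0452, 0.0592 and 0.0641 in SB273005 replicates 1 to 4. The PBS libraries lay within a narrow range and below the other 11 libraries.

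**Figure D4:**
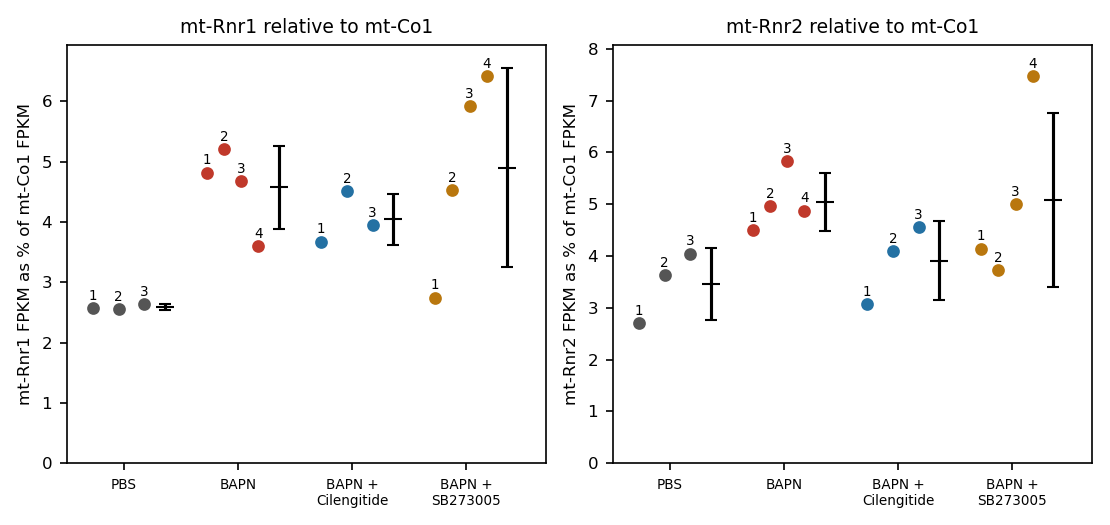
FPKM of mt-Rnr1 (left) and mt-Rnr2 (right) as a percentage of the FPKM of mt-Co1 in the same library (y axes), by group (x axis); points are libraries with their replicate number, and the black mark with bars is the group mean ± SD. PBS lies below BAPN in both panels, and SB273005 replicate 1 is the lowest of its group for mt-Rnr1.

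The ratios of 3 pairs of protein-coding genes varied less than those of the rRNA genes. mt-Nd6 to mt-Nd5, which are read from opposite strands and share 14 bases, had an FPKM ratio of 1.13 to 1.46 over the 14 libraries. mt-Atp8 to mt-Atp6 was at 0.679 to 0.836, and mt-Nd4l to mt-Nd4 at 0.352 to 0.433, pairs that are known to share a messenger RNA. mt-Rnr2 to mt-Rnr1, cut from one precursor, ranged from 0.825 to 1.53. Groups overlapped in all comparisons of these 4 pairs. The lowest adjusted p was 0.562 (exact permutation tests), which, with so few libraries, does not show that the ratios were alike.

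The tRNA genes held 0.261% to 0.384% of member counts, with mean counts per library from 10.9 (mt-Tv) to 4437 (mt-Ts1). Mature tRNAs are short and carry many modified bases, so that libraries of longer fragments are known to capture them poorly, and reads assigned to them may come from precursors or neighbouring genes. mt-Ts1 was at 881, 1230 and 884 FPKM in PBS, 641, 1096, 815 and 1146 in BAPN, 639.9, 516 and 587 in Cilengitide and 752, 2697, 1283 and 751 in SB273005. Its share of member counts was as steady as that of the protein-coding genes, with a highest to lowest ratio of 1.25. mt-Te was at 664, 1133 and 750.0 FPKM in PBS, 440.0, 815, 790.0 and 969.6 in BAPN, 595, 452 and 478 in Cilengitide and 643, 1533, 949 and 570.0 in SB273005. It too was highest in SB273005 replicate 2, and all Cilengitide libraries lay below PBS. mt-Tl1 was at 270.3, 818 and 489 FPKM in PBS, 206, 319, 488 and 835 in BAPN, 253, 253 and 317 in Cilengitide and 585, 488, 471 and 425 in SB273005. BAPN replicate 4 and PBS replicate 2 were the highest libraries for it, and all SB273005 libraries lay above all Cilengitide libraries.

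Among the tRNA genes 12 of 22 were highest in BAPN replicate 4, and 5 were highest in SB273005 replicate 2, the library that was highest for the protein-coding and rRNA genes. BAPN replicate 4 had the highest summed level of 5 brown adipocyte markers (Ucp1, Cidea, Cox7a1, Cox8b and Elovl3), 401 FPKM, against 28.4 to 187 in the other libraries, with the lowest level in SB273005 replicate 2. The part of these cells in the tRNA levels was not tested.

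The adjacent genes mt-Th, mt-Ts2 and mt-Tl2 varied together and apart from their neighbours. Their summed level was 10.1, 36.03 and 26.9 FPKM in PBS, 8.95, 16.5, 23.5 and 66.1 in BAPN, 8.03, 4.91 and 6.91 in Cilengitide and 49.8, 13.8, 11.5 and 14.7 in SB273005. BAPN replicate 4 and SB273005 replicate 1 were the highest libraries, and all Cilengitide libraries were below the lowest of every other group. In the same libraries mt-Nd4 and mt-Nd5, on either side, were highest in SB273005 replicate 2, where the sum of these tRNA genes was 13.8 FPKM. Counts were low: the sum ran from 21 (95% Poisson interval 13 to 32.1) in Cilengitide replicate 2 to 244 (214 to 277) in BAPN replicate 4, intervals that cover counting error only. The share of member counts varied 18.1-fold for mt-Th, 13.7-fold for mt-Ts2 and 6.34-fold for mt-Tl2 over the 14 libraries. In Cilengitide vs. PBS the log2 differences were −2.09 ± 0.87, −1.89 ± 0.83 and −1.42 ± 0.69, and none of these passed (edgeR adjusted p = 0.191, 0.217 and 0.276). The order of libraries was not confined to this place on the map. mt-Tk was also highest in SB273005 replicate 1 (19.4 FPKM) and BAPN replicate 4 (14.9). mt-Tw and mt-Tl1 were highest in BAPN replicate 4, PBS replicate 2 and SB273005 replicate 1.

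**Figure D5:**
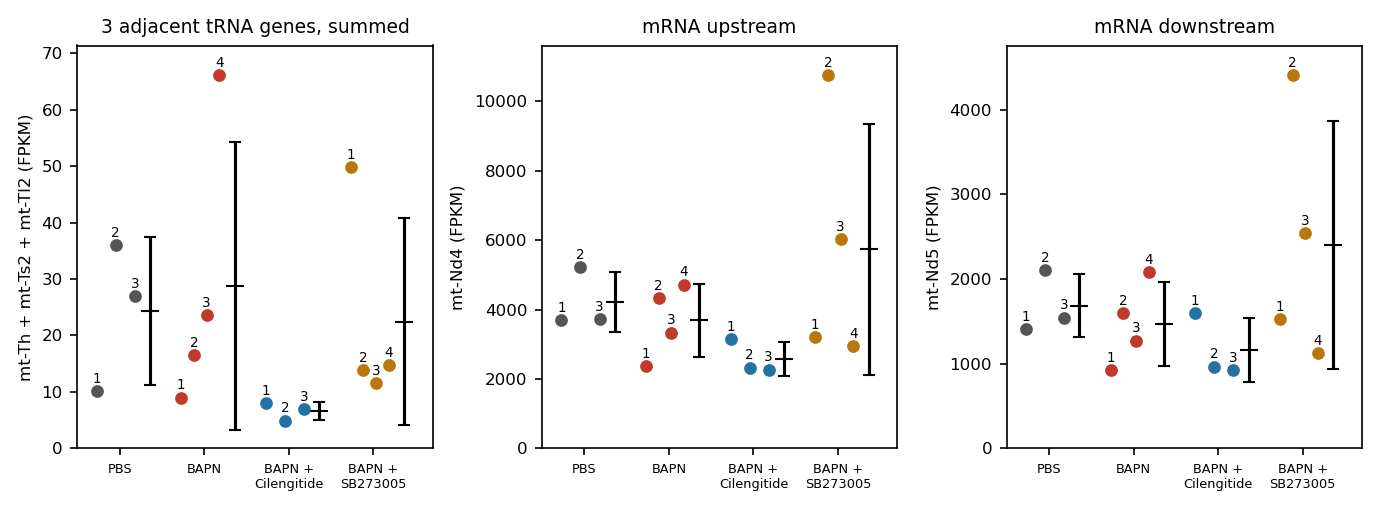
Summed FPKM of mt-Th, mt-Ts2 and mt-Tl2 (left) and FPKM of the flanking genes mt-Nd4 (middle) and mt-Nd5 (right) in each library (y axes), by group (x axis); points are libraries with their replicate number, and the black mark with bars is the group mean ± SD. The tRNA sum is highest at 66.1 in BAPN replicate 4 and 49.8 in SB273005 replicate 1, while both flanking genes are highest in SB273005 replicate 2.

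Of the other tRNA genes, mt-Td (aspartate) was at 18.2 FPKM in PBS replicate 3 and at 2.34 to 10.7 in the other 13 libraries. mt-Ti (isoleucine) was at 13.7, 17.7 and 9.95 FPKM in PBS and 13.1, 46.6, 39.3 and 26.7 in SB273005. Its log2 difference was 1.24 ± 0.42 and did not pass in edgeR (adjusted p = 0.0691), whereas DESeq2 called it (adjusted p = 0.0327). mt-Tv (valine), which lies between the rRNA genes, was at 1.57, 2.18 and 1.79 FPKM in PBS and 3.39, 3.6, 3.31 and 3.12 in SB273005. All SB273005 libraries were higher, but the log2 difference of 0.82 ± 0.34 did not pass (edgeR adjusted p = 0.130), and limma with a pseudocount of 1 called it (adjusted p = 0.0487).

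Of 77 nuclear genes of oxidative phosphorylation, which build the same complexes, 0 rose and 10 fell in edgeR in SB273005 vs. PBS (12.99%, where 5.38% of all genes were lower). Their median was −0.28, and that of the 13 mitochondrially encoded subunits 0.43. Without SB273005 replicate 2 the medians were −0.21 and −0.13, so that the difference in sign rested on that library. Of 36 complex I subunits 6 fell, among them Ndufb7 (8.02 ± 1.11 vs. 11.8 ± 1.73 FPKM, log2 −0.51 ± 0.12, edgeR adjusted p = 0.0171) and Ndufa13 (32.4 ± 5.30 vs. 46.7 ± 6.77 FPKM, log2 −0.48 ± 0.12, edgeR adjusted p = 0.0258). Ndufv3 fell from 18.3 ± 2.48 to 11.8 ± 1.16 FPKM (edgeR adjusted p = 0.0274). For complex V, Atp5j and Atp5g1, a coupling subunit and a gene of the membrane ring, fell by 0.36 and 0.63 in log2 units (edgeR adjusted p = 0.0291 and 0.0322). Sdhc of complex II fell by 0.51 (edgeR adjusted p = 0.0354) and Cox6c of complex IV by 0.43 (edgeR adjusted p = 0.0434). In complex III, 0 of 10 passed in edgeR, with 5 at an unadjusted p under 0.05, against 29.1% of all genes. The lowest p were those of Uqcrq (−0.48, edgeR adjusted p = 0.105) and Uqcrb (−0.47, edgeR adjusted p = 0.112). The count of 10 was 0 without PBS replicate 2, 3 without SB273005 replicate 3, 5 without PBS replicate 1, 6 without SB273005 replicate 1 and 7 without SB273005 replicate 2. It was 2 with no filter and 0 with only the groups compared. DESeq2 called 17 (22.1%) and limma 16 (20.8%), all lower, where they called 19.6% and 12.2% of all genes in either direction. Those shares of all genes include rises, so they are not matched to a count of falls alone. Among the 6 libraries with 0 counts of H2-Ea 0 passed (median −0.27), against 4.00% of all genes.

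The nuclear genes that maintain and express the mitochondrial genome gave few calls in SB273005 vs. PBS. Of 82 mitochondrial ribosomal protein genes tested 5 fell and 0 rose in edgeR (median −0.16). The share that fell, 6.10%, was near the 5.38% of all genes. Examples were Mrpl17, at 4.29 ± 0.397 vs. 6.04 ± 0.348 FPKM (log2 −0.43 ± 0.08, edgeR adjusted p = 0.00804) and Mrpl18, at 17.3 ± 2.48 vs. 25.7 ± 1.09 FPKM (log2 −0.52 ± 0.12, edgeR adjusted p = 0.0190). Mrpl23 and Mrpl55 fell by 0.42 and 0.51 (edgeR adjusted p = 0.0229 and 0.0316). The count of ribosomal protein genes was 1 without PBS replicate 2, 3 without PBS replicate 1 and 8 without SB273005 replicate 4. DESeq2 called 14 and limma 12, all lower, where they called 19.6% and 12.2% of all genes in either direction, shares that again include rises. In the list of RNA processing and stability 1 of 30 passed, a fall, where 5.38% of all genes were lower. It was Hsd17b10, a subunit of mitochondrial RNase P, which cuts at the 5′ ends of tRNAs. Its level fell from 38.3 ± 1.48 FPKM in PBS to 29.9 ± 2.52 (log2 −0.30 ± 0.08, edgeR adjusted p = 0.0328), a call that ended without any 1 of the PBS libraries and held in 19 of 26 alternatives. Of 27 translation factors 1 passed, also a fall, where 5.38% of all genes were lower. It was Pars2, a prolyl-tRNA synthetase, which fell by 0.74 ± 0.22 (edgeR adjusted p = 0.0409). This count was 0 without any 1 of the PBS libraries, BAPN replicate 1 or 3, Cilengitide replicate 3 or SB273005 replicate 1 or 4. The call of Pars2 held in 12 of 25 alternatives.

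Of 17 genes of mitochondrial DNA replication and transcription, 0 passed in edgeR, DESeq2 or limma. An unadjusted p under 0.05 was found for 1 of them and for 29.1% of all genes. The lowest p were those of Mgme1, an exonuclease of mitochondrial DNA (0.44 ± 0.19, edgeR adjusted p = 0.152), and Top1mt, the mitochondrial topoisomerase (−0.30 ± 0.15, edgeR adjusted p = 0.224). Of 6 regulators of mitochondrial biogenesis tested 1 rose, where 7.82% of all genes were higher. It was Pprc1, a coactivator related to PGC-1α, at 5.34 ± 1.18 vs. 3.61 ± 0.481 FPKM (log2 0.62 ± 0.16, edgeR adjusted p = 0.0231). The call of Pprc1 held in 16 of 26 alternatives. It ended without PBS replicate 2 or 3 or SB273005 replicate 1 or 3, with limma at a pseudocount of 1 (adjusted p = 0.0705), with no filter (edgeR adjusted p = 0.0907) and with only the groups compared (edgeR adjusted p = 0.0899). Among the 6 libraries with 0 counts of H2-Ea its edgeR adjusted p was 0.144. In the other 5 comparisons 0 genes of any of these lists passed in edgeR. At an unadjusted p under 0.05, the oxidative phosphorylation list held 2 genes in BAPN vs. PBS, 4 in Cilengitide vs. PBS, 0 in Cilengitide vs. BAPN, 19 in SB273005 vs. BAPN and 3 in SB273005 vs. Cilengitide. DESeq2 called 0 genes of that list in each of these, and so did limma. Of the other lists, DESeq2 called 2 processing genes, 2 translation factors and 1 ribosomal protein gene lower and 1 biogenesis regulator higher in Cilengitide vs. PBS, and 1 ribosomal protein gene lower in SB273005 vs. BAPN. limma called 1 ribosomal protein gene lower in Cilengitide vs. PBS.

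Markers of the cells of the aortic wall and of tissues around it also differed between groups. The smooth muscle sum was 8624 to 10316 FPKM in PBS, 6707 to 10303 in BAPN, 5839 to 7794 in Cilengitide and 1087 to 6782 in SB273005. Macrophage markers (Cd68, Csf1r, Adgre1, C1qa and Mrc1) summed to 41.7 to 55.5 FPKM in PBS, below all other libraries (89.6 to 262). Fibroblast markers (Pdgfra, Dcn, Lum and Col1a1) were at 536 to 640 FPKM in PBS and 767 to 2071 elsewhere. PBS thus stood apart in the macrophage and fibroblast sums, as it did in the ratio of mt-Rnr1 to mt-Co1. SB273005 replicate 1, with the highest macrophage sum (262 FPKM), had a ratio of 0.0274, next to the highest PBS value of 0.0264. The remaining libraries outside PBS had ratios of 0.0360 to 0.0641. In the smooth muscle sum PBS and BAPN overlapped. Within the fibroblast list Col1a1 and Lum were lower in PBS than in all other libraries, while Pdgfra and Dcn overlapped between PBS and BAPN. The part of these cells in that ratio was not tested. Cardiomyocyte markers (Myh6, Myl7, Nppa, Tnnt2, Actn2 and Myl4) summed to 34.7 to 69.2 FPKM in PBS, 13.6 to 23.9 in BAPN, 17.5 to 60.7 in Cilengitide and 39.5 to 112 in SB273005, the highest in SB273005 replicate 3. The genes of this list did not move alike. Myh6 was at 21.4 to 47.0 FPKM in the libraries with 0 counts of H2-Ea and at 0.736 to 10.6 in the others. Myl7, Tnnt2 and Myl4 overlapped between PBS and BAPN, and Myl7 was highest in Cilengitide replicate 1 (31.7 FPKM). Skeletal muscle markers (Acta1, Ckm, Myh4, Tnnt3 and Mylpf) summed to 1860 FPKM in PBS replicate 2 and 1257 in BAPN replicate 3, against 32.1 to 378 in the other 12 libraries. SB273005 replicate 2, with the highest level of all protein-coding members, was at 39.5 and 229 FPKM for the cardiomyocyte and skeletal muscle lists. Both values lay inside the range of the other libraries, and the part of these tissues in its level was not tested. PBS replicate 2, with the highest mitochondrial share of its group, also had the highest skeletal muscle sum, and the part of these cells in that share was not tested.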

How the data were processed

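Trizol was used to extract RNA and SuperScript II for reverse transcription, per the labels' protocols. HISAT2 2.2.1, StringTie 2.1.6 and mm10 are named in the submitters' processing notes. The sources used here give neither the strand setting nor whether libraries were selected for poly(A) or depleted of rRNA. The deposited FPKM and the deposited estimated counts (whole numbers) of genes are the authors' values, and all 37 members had the same coordinates in GENCODE vM21. No column was left out.

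The members and lists were chosen with earlier results of these data known. The 13294 genes with 3 libraries at an FPKM of 1 or above entered 1 edgeR 4.0.16 fit (R 4.3.3, TMM) over 14 libraries. SEs were worked back from the F statistic and intervals are approximate. Shares of counts got no test. Ratios of FPKM were tested by exact permutation. The pipeline was tested on simulated data for BAPN vs. PBS (13294 genes) and recovered 14.9% of genes changed 1.5-fold, 62.7% of those changed 2-fold and 90.9% of those changed 4-fold. Alternatives used DESeq2 1.42.0, limma 3.58.1 on log2(FPKM + 1), other scalings and filters, a replicate block and single libraries left out. The labels give replicate numbers but no pairing, and the main fit used none. Deviations of same-numbered Cilengitide and SB273005 libraries correlated at 0.302, 0.154 and 0.221. The numbers were taken as pairs only in the replicate block. Values in every library are given for 8 members fixed by name, the 3 tRNA genes with the most counts and any member that passed. Of the other lists up to 4 genes that passed, or the 2 with the lowest p, are named for SB273005 vs. PBS. Other members with values, and H2-Ea, were singled out after their values were seen. Replicates differed by more than sampling noise in all 18 pairs (lowest chi-square over its degrees of freedom, 41.5).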

Additional observations from a re-analysis of the deposited data

Results flagged for a closer look

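mt-Th in SB273005 was at 19.8 FPKM in replicate 1, against 3.28, 4.77 and 4.85 in replicates 2, 3 and 4. The gap to the nearest library was 0.905 of the range of the group, beyond Dixon's 95% limit for 4 samples. Of 44 sets of 4 libraries looked at this was the only one, and chance gives about 1 in 20.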

How the results depend on the processing

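Counts of members that passed in SB273005 vs. PBS depended on the setting, and 1 passed in the main analysis. It was 0 with no filter, with limma at a pseudocount of 0.1, with only the groups compared, with counts scaled to the sum of the members, and with PBS and SB273005 replicates 1 to 3 alone, the last pair chosen after seeing the data. It was 3 with the DESeq2 Wald test (mt-Rnr1, mt-Rnr2 and mt-Ti), which called 2607 of 13294 genes (19.6%), and 0 to 4 with single libraries left out. mt-Rnr1 passed in 14 of 26 alternatives, with log2 differences of 1.02 to 1.76 and adjusted p from 0.00201 to 0.437. Members that passed were 3 in Cilengitide vs. PBS with only the groups compared and 1 in SB273005 vs. Cilengitide with DESeq2. Differences of the member share were larger as a share of summed FPKM, −6.40 percentage points for Cilengitide vs. PBS, −4.64 for Cilengitide vs. BAPN and 10.4 for SB273005 vs. Cilengitide, against −2.86, −1.96 and 5.29 as a share of counts. With single libraries left out the difference of SB273005 from PBS ran from −0.282 to 3.92 percentage points. The cause of these changes was not tested. Scaling to the sum of the members sets their own median near 0 by construction, from −0.04 to 0.20, and moved the median of all genes to 0.64 in Cilengitide vs. PBS and −0.81 in SB273005 vs. Cilengitide.

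Same-numbered libraries had correlations of −0.159 to 0.337 over 19 pairs, 12 of them over 0.1. All 3 pairs were over 0.1 only between Cilengitide and SB273005. With the replicate block 0 members passed in that comparison, as without it, and the median was 0.99 in place of 1.12. There 20 members in place of 30 had an unadjusted p under 0.05, and 10.3% of all genes in place of 9.21%. In the other comparisons at least 1 pair was at or under 0.1, and the samples share only a number. With the block 2 members passed in SB273005 vs. PBS, mt-Rnr1 and mt-Rnr2 (edgeR adjusted p = 0.0333 and 0.0405). Depth limits mostly the tRNA genes of few counts.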
